A study of Mus musculus with 20 samples.

Results

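The small leucine-rich proteoglycans (SLRPs) examined here were *Dcn*, *Lum*, *Bgn*, *Fmod*, *Kera*, *Ogn*, *Omd*, *Prelp*, *Aspn* and *Chad*, taken by gene symbol from the deposited table of outer eyecup expression. All 10 of these genes were among the 24411 genes of the table, and all 10 were among the 18807 genes that passed the filter of at least 5 reads in total. RNA-seq had been performed on the RPE-choroid (retinal pigment epithelium and choroid) of C57BL/6 mice in 4 groups of 5 libraries. The groups were WT and *Stra6*-/- mice kept for 12 weeks after weaning on a vitamin A sufficient (VAS, 4 IU/g) or vitamin A deficient (VAD, 0 IU/g) diet, and all had been raised on standard chow before. STRA6 is the membrane transporter that takes up retinol from the circulation into the RPE. The *Stra6*-/- line lacks it in the whole body. By the study's methods each library held both eyecups of 1 mouse, the anterior segment had been removed, and WT mice came from a commercial vendor whereas *Stra6*-/- mice were bred in house, so that genotype and source of the mice cannot be told apart.

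SLRPs are secreted proteins with a small core of leucine-rich repeats that bind collagen fibrils and set their diameter and spacing. Most carry chondroitin, dermatan or keratan sulfate chains. They are abundant in sclera, tendon, cartilage and cornea. Keratocan, the product of *Kera*, is a keratan sulfate proteoglycan known as a marker of the corneal stroma, where it keeps thin collagen fibrils evenly spaced with lumican. Decorin, biglycan, fibromodulin, PRELP and chondroadherin are known from sclera, tendon and cartilage.

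Some libraries stood apart or went against their labels, which touches every comparison below. The values used are gene counts divided by a size factor per library and are called normalized values. *Stra6* itself was between 2414 and 2742 in VAS WT and between 564 and 694 in VAS *Stra6*-/-. It was between 1973 and 2393 in the libraries labelled VAD *Stra6*-/-, against the label. In VAD WT it was 693, 697 and 669 in replicates 1, 3 and 5, close to the range of VAS *Stra6*-/-, and 1340.1 and 1529 in replicates 2 and 4, all below VAS WT. The names of both VAD groups are therefore used as the labels give them, and an exchange or mixing of libraries between them was not tested. *Xist*, from the inactive X chromosome, and the Y-linked *Ddx3y* separated VAS WT (*Xist* 7.69 to 38.4, *Ddx3y* 981 to 1193) from VAS *Stra6*-/- (*Xist* 15320.2 to 18052, *Ddx3y* at most 1.02). The labelled VAD *Stra6*-/- libraries held both transcripts, with *Xist* between 3569.8 and 4279.6 and *Ddx3y* between 741 and 969.7. Both at such levels in each library conflict with the 1 mouse per library that the study's methods give. Whether RNA of several mice was mixed was not tested, so p-values with this group may not measure a spread between mice. In VAD WT, replicates 2 and 4 had *Xist* at 10912 and 11767 and *Ddx3y* at 75.2 and 80.5, whereas replicates 1, 3 and 5 had *Xist* between 174 and 234 and *Ddx3y* between 1041 and 1133. The labels give no sex, and group and sex-linked transcripts cannot be told apart. Most results that rest on VAD WT are given with and without replicates 2 and 4, and the others include them. These 2 libraries were set apart by their values, which also narrows the spread in every fit without them. Calls from those fits are thus a description.

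The 10 genes lie at 5 places in the mouse genome (GRCm38). *Dcn* (97479609 to 97518143), *Lum* (97565128 to 97572703) and *Kera* (97606879 to 97613692) are neighbours on the plus strand of chromosome 10, separated by 47.0 and 34.2 kb. *Aspn* (49544443 to 49567565), *Omd* (49582462 to 49592822) and *Ogn* (49608046 to 49624501) follow each other on the plus strand of chromosome 13, with gaps of 14.9 and 15.2 kb. *Prelp* (133910304 to 133921414, minus strand) and *Fmod* (134037254 to 134048277, plus strand) are 116 kb apart on chromosome 1. *Bgn* is on chromosome X (73483602 to 73495933, plus strand), and *Chad* is on chromosome 11 (94565047 to 94569127, plus strand), within the opposite-strand gene *Acsf2*. *Aspn* shares exonic sequence with the opposite-strand *Cenpp*, and *Prelp* with an antisense transcript. Whether the counting used strand is not given in the sources used here, so reads of these pairs could not be assigned with certainty.

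The upstream sequences of *Chad* and *Omd* are shown because these genes had the highest fold changes in the comparison with every member higher, described further on. Promoter windows from RefSeq (GRCm38.p6) were at hand for 8 of the 10 genes. The 250 bases before the annotated start were searched on both strands for TATAAA, the core of the TATA box, and AGGTCA, a core motif of nuclear receptor binding elements. Capitals mark the matches. The *Chad* sequence is chr11:94564797-94565046 and the *Omd* sequence chr13:49582212-49582461, both on the plus strand.
Chad: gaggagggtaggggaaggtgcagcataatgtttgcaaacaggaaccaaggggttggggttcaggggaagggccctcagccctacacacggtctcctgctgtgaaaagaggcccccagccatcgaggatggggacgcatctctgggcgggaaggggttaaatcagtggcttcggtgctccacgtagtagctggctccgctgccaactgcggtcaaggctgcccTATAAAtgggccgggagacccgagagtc
Omd: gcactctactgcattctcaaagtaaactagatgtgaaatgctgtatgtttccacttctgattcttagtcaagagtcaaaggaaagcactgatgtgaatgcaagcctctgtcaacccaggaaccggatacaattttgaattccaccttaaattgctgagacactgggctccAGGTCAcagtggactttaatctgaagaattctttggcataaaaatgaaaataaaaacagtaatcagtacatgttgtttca
In *Chad*, TATAAA lay 28 to 23 bases before the start. It was found in 3 of the 8 windows (*Chad*, *Aspn* and *Ogn*) and in 12.4% of all 32851 windows. AGGTCA lay 80 to 75 bases before the start of *Omd*, the sole window of the 8 with it, against 14.0% of all windows. A match is a description of these letters and not a binding site.

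*Dcn* had the highest value of the members in every group when values were divided by exon length. That length covers all annotated exons of a gene together, from 1680 bases for *Chad* to 5838 for *Dcn* and 6099 for *Bgn*. The order and the shares below depend on this choice. In VAS WT it had a mean normalized value of 2788 per kb of exon, followed by *Fmod* at 1865 and *Bgn* at 1773, whose ranges over libraries overlapped. *Lum* came next at 1003 per kb, then *Prelp* at 681 and *Ogn* at 591, again overlapping. *Chad* (407 per kb), *Kera* (273), *Aspn* (140) and *Omd* (56.1) ended the order, and none of these last 4 overlapped its neighbour. In VAS *Stra6*-/- the order was the same at the top, whereas *Kera* fell to 99.1 per kb and overlapped *Aspn* at 98.8. In the labelled VAD *Stra6*-/- libraries *Dcn* reached 20088 per kb and *Chad* moved up to 5428, overlapping *Fmod* at 5472. *Kera* was last there at 165 per kb, below *Omd* at 502.

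The summed value of the 10 members per kb was 9297 to 9765 in VAS WT and 8673 to 8982 in VAS *Stra6*-/-. It was 44229 to 46081 in the labelled VAD *Stra6*-/- libraries, with no overlap with any other group. In VAD WT it ran from 8989 to 27030. The make-up of the sum also differed. Shares are given as mean ± SD over the 5 libraries of a group. From VAS WT to the labelled VAD *Stra6*-/- libraries, the share of *Dcn* went from 29.1% ± 0.686 to 44.6% ± 0.912. That of *Chad* went from 4.25% ± 0.290 to 12.0% ± 0.325, and that of *Bgn* from 18.5% ± 0.522 to 8.94% ± 0.323. *Dcn* and *Chad* thus made up more of the sum there and *Bgn* less. *Kera* made up 2.85% ± 0.134 of the sum in VAS WT, 1.12% ± 0.172 in VAS *Stra6*-/- and 0.367% ± 0.0513 in the labelled VAD *Stra6*-/- libraries. In VAD WT it was 12.9% ± 0.366 (SD, n = 3) in replicates 1, 3 and 5 and 1.39% in replicates 2 and 4. In bulk tissue, fewer cells of a type and less RNA per cell cannot be told apart.

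**Figure D1:**
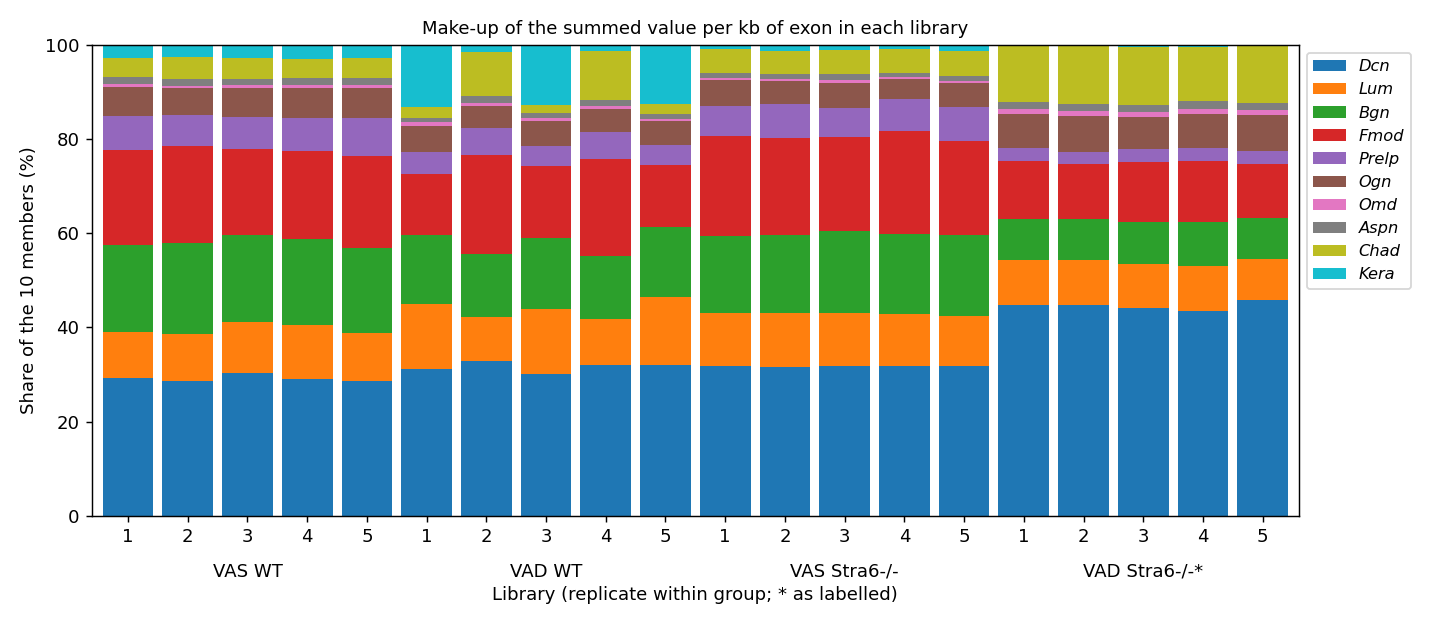
Share (%) of each member in the summed normalized value per kb of exon, 1 bar per library in the 4 groups. The *Dcn* share is near 44.6% in all 5 libraries labelled VAD *Stra6*-/-, and the *Kera* band is wide in VAD WT replicates 1, 3 and 5, with a mean of 12.9%.

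Between the genotypes under sufficient vitamin A, *Kera* was the only member called in the fit of all 20 libraries. *Kera* was 643, 578, 643, 637 and 614 in the 5 VAS WT libraries. In VAS *Stra6*-/- it was 194, 275, 215, 193 and 253. Every VAS *Stra6*-/- library was thus below every VAS WT library, and the log2 fold change was -1.47 (standard error, SE, 0.27, limma adjusted p = 3.32e-04). The other 9 members were not called, so that 1 of 10 was called lower, against 10.8% of all genes tested called lower and 26.6% in either direction. With a log2 fold change beyond 2 asked for as well, 0 members and 1.10% of all genes were called. *Dcn*, the collagen-binding decorin, had a log2 fold change of 0.01 (SE 0.26), and *Lum*, the neighbour of *Kera*, of -0.01 (SE 0.16).

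*Bgn*, *Ogn*, *Aspn* and *Kera* were lower in all VAS *Stra6*-/- than in all VAS WT libraries, that is 4 of 10 members against 13.2% of all genes with such a separation downwards and 32.5% in either direction. The log2 fold changes were -0.25 for biglycan, -0.44 for osteoglycin and -0.51 for asporin, with adjusted p of 0.456, 0.165 and 0.251. The spread in this fit is shared with VAD WT. Without VAD WT replicates 2 and 4, 5 members were called lower, namely *Kera*, *Bgn*, *Ogn*, *Aspn* and *Prelp*, against 17.5% of all genes called lower and 40.0% in either direction in that fit. The fold changes are the same in both fits, whereas the standard error narrowed, from 0.22 to 0.0343 for *Bgn*. As the 2 libraries were picked by their values, these calls are a description. With just the 2 compared groups in the fit, limma adjusted p was 1.15e-04 for *Bgn* and 4.89e-04 for *Ogn*. It was 0.00183 for *Aspn* and 0.0361 for *Prelp*.

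**Figure D2:**
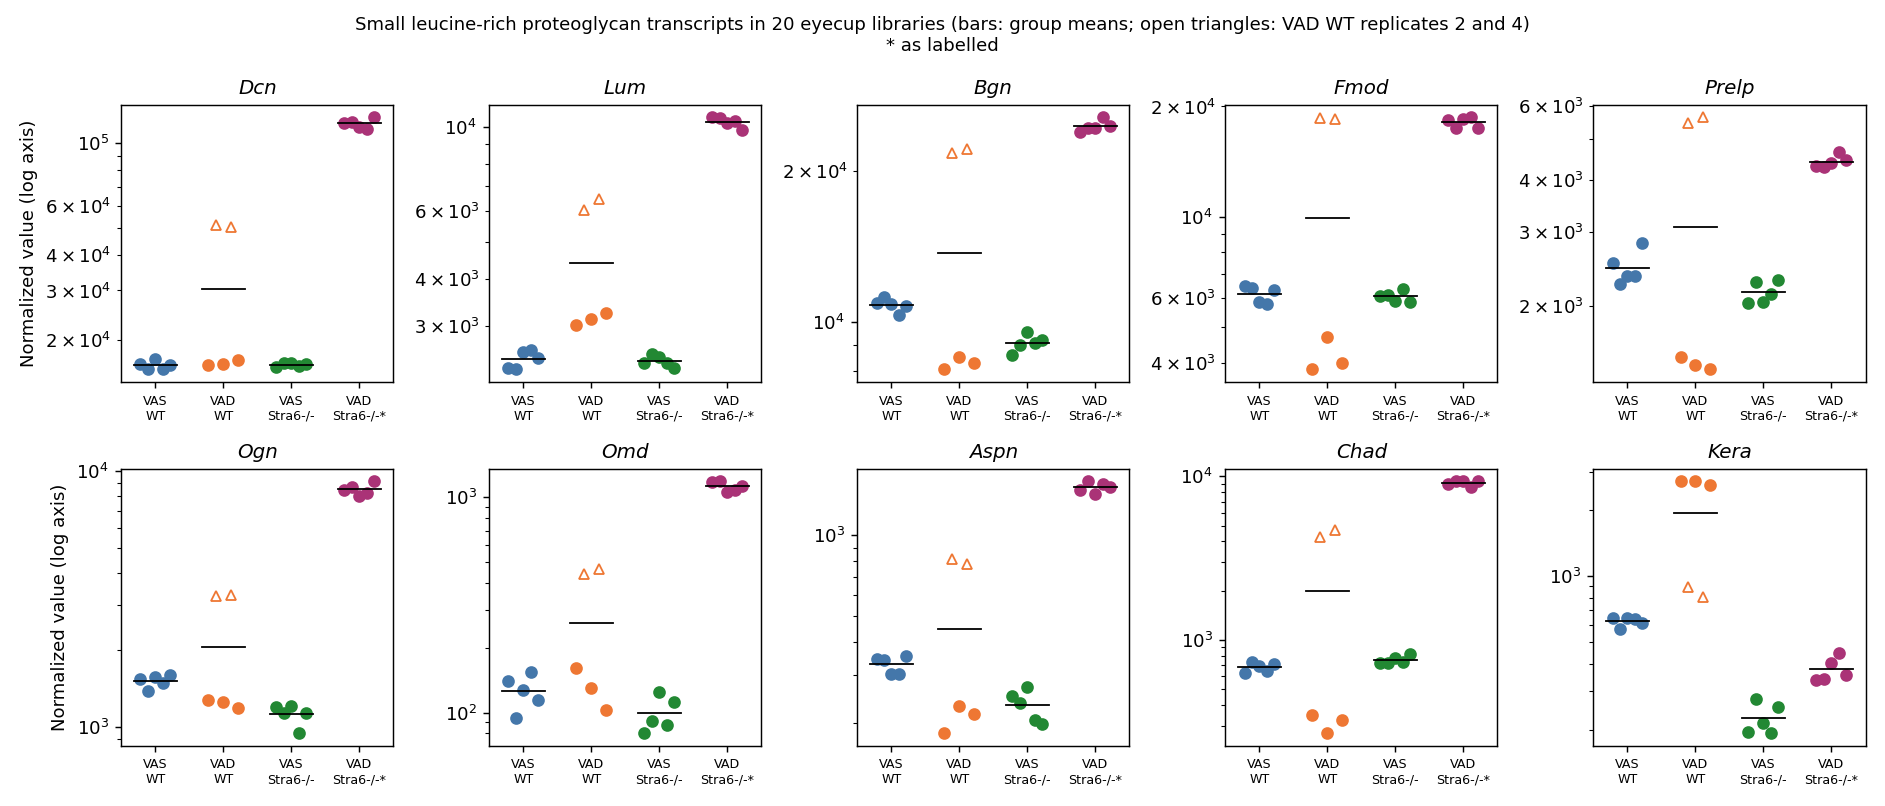
Normalized value (log axis) of each of the 10 members in every library, by group, with a bar at the group mean and VAD WT replicates 2 and 4 as open triangles. In 9 of 10 panels the triangles lie above the other VAD WT libraries, and for *Kera* they lie lower.

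*Kera* and *Lum*, both corneal keratan sulfate proteoglycans, were higher in VAD WT than in VAS WT, whereas *Ogn*, which encodes mimecan, also known from the corneal stroma, was not called (log2 fold change 0.27, limma adjusted p = 0.529). *Kera* was 2721, 892, 2716, 809 and 2620.4 in VAD WT replicates 1 to 5, all above the VAS WT libraries, and the log2 fold change was 1.44 (SE 0.27, limma adjusted p = 0.00139). *Lum* was 3026, 6053, 3143, 6449 and 3243, against 2325, 2313, 2570, 2597 and 2471 in VAS WT, and the log2 fold change was 0.75 (SE 0.16, limma adjusted p = 0.00404). For both genes the groups did not overlap. These were the only members called by limma in the fit of all libraries, 2 of 10 higher against 3.29% of all genes called higher and 8.78% called in either direction. The same 2 of 10 were higher without overlap between the groups, against 2.13% of all genes higher and 6.34% in either direction. No member passed a log2 fold change of 2, against 0.409% of all genes. The count tests on the recovered reads called *Dcn* and *Omd* higher as well, with adjusted p of 0.0385 and 0.0436 in edgeR and 0.00631 and 0.0110 in DESeq2. With just these 2 groups in the fit, neither was called, at adjusted p of 0.0771 for *Kera* and 0.128 for *Lum*.

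Without VAD WT replicates 2 and 4, the comparison had 8 called members, against 37.9% of all genes. *Kera* (2.11) and *Lum* (0.35) were then higher on the log2 scale, 2 of 10 against 17.6% of all genes, and 6 of 10 were lower against 20.3%. *Chad*, a cartilage matrix protein that binds integrins, had a log2 fold change of -1.12. It was -0.75 for *Prelp*, -0.66 for *Aspn*, -0.57 for *Fmod*, -0.38 for *Bgn* and -0.29 for *Ogn*. In the fit with all libraries each of these 6 had a log2 fold change above 0, the highest being 0.41 for *Chad*, and none of them was called. *Dcn* at 0.03 and *Omd* at 0.05 were not called without replicates 2 and 4. The direction of 6 members in this comparison therefore turned with these 2 libraries, whereas that of *Kera* and *Lum* was the same.

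Within VAD WT, replicates 2 and 4 were above replicates 1, 3 and 5 in 9 of the 10 members and below them in *Kera*. *Chad* was 4266 and 4728 in replicates 2 and 4, against 349, 269.6 and 326 in replicates 1, 3 and 5, a ratio of 14.3 between the means. The ratio was 4.43 for *Fmod*, 3.82 for *Aspn*, 3.80 for *Prelp*, 3.45 for *Omd*, 3.06 for *Dcn*, 2.64 for *Bgn*, 2.63 for *Ogn* and 1.99 for *Lum*. *Kera* went the other way, with a mean of 2686 in replicates 1, 3 and 5 and 850.4 in replicates 2 and 4, a ratio of 3.16. Of all genes tested, 31.5% were above and 29.7% below in the same sense. These libraries were set apart by their values, so no test is given.

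In the labelled VAD *Stra6*-/- libraries, all 10 members were higher than in VAS *Stra6*-/-, and in all 10 the groups did not overlap. Of all genes tested, 24.4% were called higher and 53.2% in either direction, and 24.5% were higher without overlap. Beyond a log2 fold change of 2 there were 6 members and 9.08% of all genes. The median log2 fold change was 2.39 over the members and -0.07 over all genes tested. *Dcn* was 117749, 118721, 114407, 112126 and 123370 in the labelled libraries, and 16050.0, 16544, 16634, 16246 and 16396 in VAS *Stra6*-/-. Its log2 fold change was 2.84 (SE 0.26, limma adjusted p = 5.36e-09).

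The members differed widely in the size of this change. *Chad* rose most, from 723, 729, 778, 734 and 816 to 8976, 9346, 9307, 8638 and 9328, and the log2 fold change was 3.59 (SE 0.59, limma adjusted p = 2.36e-05). *Omd*, which encodes osteomodulin, known from mineralized matrix, went from 80.2, 91.1, 124, 87.8 and 112 to 1183, 1190, 1059, 1077 and 1136, with 3.51 (SE 0.31, limma adjusted p = 3.80e-09). Its neighbours *Ogn* and *Aspn* had log2 fold changes of 2.92 and 2.71. All 3 genes of the chromosome 13 cluster thus had higher fold changes than *Lum*, *Kera*, *Fmod*, *Prelp* and *Bgn*.

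The remaining 5 members had smaller changes. *Lum* had a log2 fold change of 2.08, *Fmod*, known for binding collagen in tendon, of 1.58 and *Prelp* of 1.03, and that of *Bgn*, a chondroitin and dermatan sulfate proteoglycan, was 1.43. *Kera* was lowest at 0.74 (SE 0.27, limma adjusted p = 0.0266), with 337, 341, 402, 447 and 354 in the labelled libraries against the 193 to 275 of VAS *Stra6*-/-. Leaving out any of 5 single libraries ended this last call: without VAS *Stra6*-/- replicate 1, 3 or 4 the adjusted p was 0.0600, 0.0504 and 0.0625, and without labelled VAD *Stra6*-/- replicate 3 or 4 it was 0.0530 and 0.0638. On chromosome 10, *Dcn*, *Lum* and *Kera*, in that order along the strand, thus had fold changes of 2.84, 2.08 and 0.74.

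**Figure D3:**
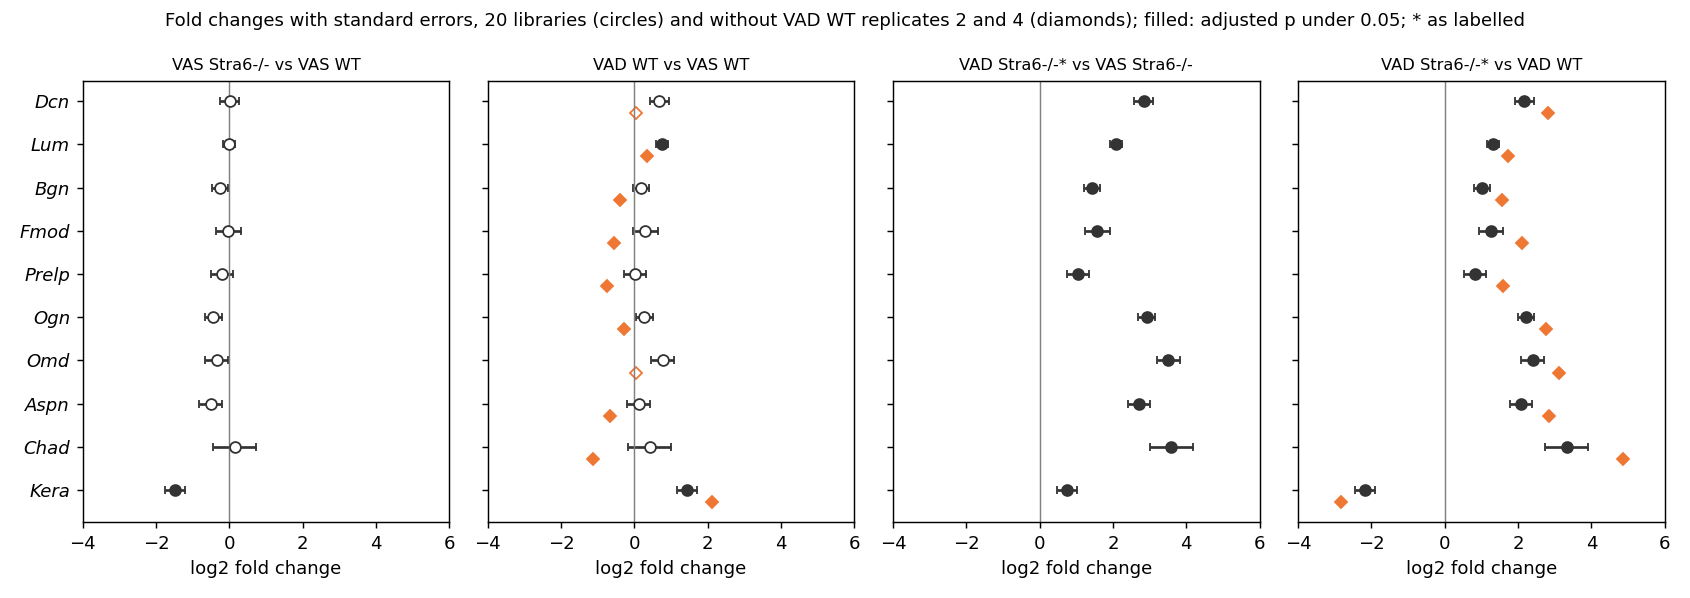
Log2 fold change of each member (circles, bars are standard errors) in 4 comparisons, with the fit without VAD WT replicates 2 and 4 as diamonds in the comparisons that involve VAD WT and filled symbols for adjusted p under 0.05. *Kera* is the sole filled circle in the first panel, at -1.47, the highest diamond in the second, at 2.11, and the sole member below 0 in the last, at -2.18.

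Against VAD WT, the labelled VAD *Stra6*-/- libraries were higher in 9 members and lower in *Kera*. This comparison shares the labelled libraries with the one above. Of all genes tested, 55.9% were called, 26.2% higher and 29.6% lower, and 10.4% passed a log2 fold change of 2, as 6 of the 10 members did. *Kera* had a log2 fold change of -2.18 (SE 0.27, limma adjusted p = 6.38e-07), with every labelled library below the lowest VAD WT value of 809. *Chad* was higher by 3.32, *Omd* by 2.40, *Ogn* by 2.21, *Dcn* by 2.17, *Aspn* by 2.08, *Lum* by 1.32, *Fmod* by 1.26, *Bgn* by 1.01 and *Prelp* by 0.83.

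In 7 of the 9 higher members the groups did not overlap, against 18.3% of all genes higher without overlap, and *Kera* was without overlap in the other direction, against 19.0%. *Fmod* and *Prelp* overlapped. *Fmod* was 18578 and 18444 in VAD WT replicates 2 and 4 and 17433 to 18688 in the labelled libraries, and *Prelp* was 5450.0 and 5630.0 in those replicates and 4290.0 to 4652 in the labelled libraries. Leaving out VAD WT replicate 1, 3 or 5 ended the call of *Prelp*, at adjusted p of 0.0812, 0.0844 and 0.0895. edgeR on the recovered reads called neither (adjusted p = 0.0576 for *Fmod* and 0.208 for *Prelp*), nor did DESeq2 (0.0543 and 0.225) or a fit of these 2 groups alone (0.0610 and 0.153). Without VAD WT replicates 2 and 4 the same 9 members were higher and *Kera* was lower, against 30.7% of all genes called higher, 32.5% called lower and 63.1% in all. The log2 fold change was then -2.84 for *Kera*, 1.60 for *Prelp*, 2.12 for *Fmod* and 4.86 for *Chad*.

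The response to the diet differed between the genotypes for 8 of the 10 members, as tested by the interaction of genotype and diet with the libraries taken as labelled. All 8 were higher, against 19.5% of all genes called higher and 44.2% in either direction. The log2 difference between the diet effects was 3.18 for *Chad*, 2.74 for *Omd*, 2.65 for *Ogn*, 2.59 for *Aspn* and 2.16 for *Dcn*. It was 1.33 for *Lum*, 1.28 for *Fmod* and 1.26 for *Bgn*, with adjusted p of at most 0.0326 for all 8 (limma). For 5 members the difference was beyond 2, against 10.4% of all genes. *Kera* (-0.70, adjusted p = 0.150) and *Prelp* (1.02, adjusted p = 0.0584) were not called by limma. In limma both passed without VAD WT replicate 2 (*Kera* -0.94, adjusted p = 0.0296, and *Prelp* 1.30, adjusted p = 0.00522) or without replicate 4 (-0.97, adjusted p = 0.0166, and 1.31, adjusted p = 0.00420). Without both libraries all 10 members were called, against 54.7% of all genes, with *Kera* lower at -1.37, against 29.0% called lower, and the other 9 higher, against 25.7%.

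The call of *Fmod* in the interaction was the least firm. It was lost without VAS WT replicate 1, 2 or 5 (adjusted p between 0.0510 and 0.0534), VAD WT replicate 1, 3 or 5 (between 0.0676 and 0.0729) or VAS *Stra6*-/- replicate 3 (0.0506). In edgeR it had an adjusted p of 0.164 and in DESeq2 of 0.188. *Chad* was not called by these count tests either, at adjusted p of 0.0530 and 0.0556 and log2 differences of 2.05 and 2.06.

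Set against the other members, *Kera* had a pattern of its own over the libraries. For each library the log2 ratio of *Kera* to each of the other 9 members was taken and the median of the 9 noted, as a description with no test. This median was -2.01 to -1.85 in VAS WT and -3.46 to -3.05 in VAS *Stra6*-/-. In VAD WT it was 0.85, 0.91 and 0.89 in replicates 1, 3 and 5, and -2.61 and -2.80 in replicates 2 and 4. In the labelled VAD *Stra6*-/- libraries it was -4.77 to -4.27. No 2 of these groups overlapped once VAD WT was split. To its chromosome 10 neighbour *Lum*, *Kera* had a log2 ratio of -2.03 to -1.85 in VAS WT, -3.64 to -3.19 in VAS *Stra6*-/- and -4.97 to -4.53 in the labelled libraries. In VAD WT that ratio was -0.31 to -0.15 in replicates 1, 3 and 5 and -2.99 to -2.76 in replicates 2 and 4.

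The corneal epithelium keratin *Krt12* was present in these eyecups at 142834 to 194875 in VAS WT, at 271708 to 283743 in VAS *Stra6*-/- and at 2179 to 3433 in the labelled VAD *Stra6*-/- libraries. It was 400653, 381262 and 384665 in VAD WT replicates 1, 3 and 5 and 114762 and 113908 in replicates 2 and 4. *Kera* and *Krt12* were thus both highest in VAD WT replicates 1, 3 and 5. VAS *Stra6*-/- had *Kera* at its lowest with *Krt12* above VAS WT, at a log2 fold change of 0.76 that was not called (limma adjusted p = 0.0705). In VAD WT against VAS WT *Krt12* was at 0.54 and not called with all libraries, and at 1.24 without VAD WT replicates 2 and 4.

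**Figure D4:**
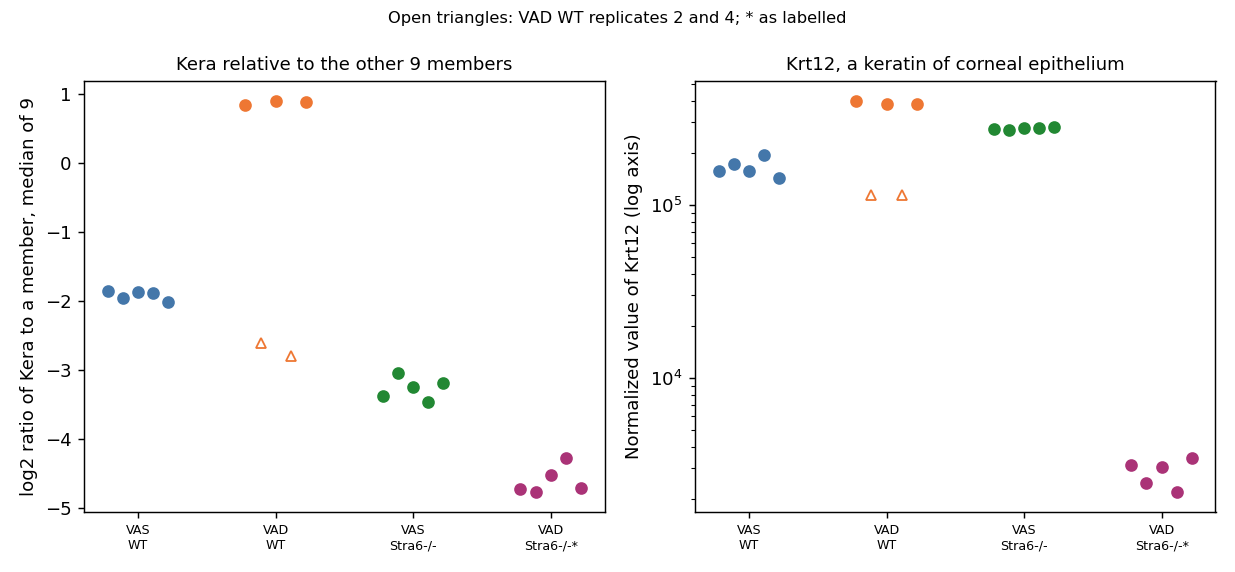
Left, the median log2 ratio of *Kera* to the other 9 members in each library, and right, the normalized value of *Krt12* (log axis), by group with VAD WT replicates 2 and 4 as open triangles. The ratio is highest at 0.91 in VAD WT replicate 3 and lowest at -4.77 in a library labelled VAD *Stra6*-/-, and *Krt12* is at most 3433 in those labelled libraries.

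The 20 libraries fall into groups, and all genes of a library share its size factor. Over these libraries, Pearson's r of log2 values between *Dcn* and the other members was 0.99 for *Lum*, *Ogn* and *Omd* and 0.97 for *Aspn* and *Chad*. It was 0.96 for *Bgn*, 0.93 for *Fmod*, 0.84 for *Prelp* and -0.19 for *Kera*. Between *Kera* and the other members it ran from -0.37 (*Chad*) to -0.07 (*Lum*). The genes outside the 10 members with the highest r to *Dcn* were *Mmp3*, a stromelysin (0.996), *Cpxm1* (0.995), *Serpinf1*, which encodes the secreted factor PEDF (0.994), *Tnmd*, the tendon protein tenomodulin (0.994), and *Serpinh1*, the collagen chaperone (0.993). Among the 5 genes most like *Kera* were *Rnft2* (0.964), *Bbs2* (0.962), *Tab1* (0.961) and *Pcp4* (0.951). Without VAD WT replicates 2 and 4, only 2 of these 5 were again among the nearest to *Kera*.

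The 8 other genes of the family showed a mixed picture. Between the labelled VAD *Stra6*-/- libraries and VAS *Stra6*-/-, 4 were higher and none lower, against 24.4% and 28.8% of all genes. *Ecm2*, next to *Aspn* on chromosome 13, was higher by 2.83 (limma adjusted p = 7.17e-08), *Epyc*, next to *Kera* on chromosome 10, by 2.57 (limma adjusted p = 1.24e-05), *Chadl* by 1.46 and *Podn* by 0.30. *Epyc* was low, at most 49.8 in VAS *Stra6*-/- and 242 to 309 in the labelled libraries. *Epyc* and *Chadl* share exonic sequence with genes of the opposite strand, so their reads could not be assigned with certainty. *Optc* (-0.25), *Podnl1* (-0.82), *Nyx* (0.15) and *Tsku* (0.40) were not called. Both neighbours of *Kera*, *Lum* and *Epyc*, thus had higher fold changes than *Kera* itself in this comparison.

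Against VAD WT, 4 of the 8 were higher in the labelled libraries, against 26.2% of all genes. These were *Epyc* (2.40), *Ecm2* (2.21), *Chadl* (1.85) and *Tsku* (0.58), of which *Tsku* overlapped between the groups. Without VAD WT replicates 2 and 4, 5 were higher, against 30.7% of all genes, and *Optc* was lower (-0.99), against 32.5%. In VAS *Stra6*-/- against VAS WT, *Optc* (-1.02) and *Podn* (-0.36) were lower, against 10.8% of all genes. In VAD WT against VAS WT *Optc* alone was lower (-0.82), against 5.50%. Without VAD WT replicates 2 and 4 *Optc*, which encodes the vitreous protein opticin, was at -0.27 in that last comparison and still called. Of the 8, 3 were then lower, against 20.3% of all genes. Within VAD WT, *Optc* had a mean of 1996 in replicates 1, 3 and 5 and 772 in replicates 2 and 4, lower there as *Kera* was. *Epyc*, *Ecm2*, *Nyx*, *Tsku* and *Chadl* were higher in replicates 2 and 4, and *Podn* and *Podnl1* overlapped.

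The collagens that SLRPs bind, and the enzymes that build their chains, were counted from lists with limma calls. Of all genes tested, 24.4% were called higher and 28.8% lower between the labelled VAD *Stra6*-/- libraries and VAS *Stra6*-/-. The shares were 15.9% higher and 10.8% lower in VAS *Stra6*-/- against VAS WT, and 3.29% higher and 5.50% lower in VAD WT against VAS WT. Of 9 fibrillar collagen genes, 6 were higher and 2 lower in the labelled VAD *Stra6*-/- libraries than in VAS *Stra6*-/-. *Col11a1* and *Col1a2*, both at 2.19, led the rise, and *Col2a1* (-1.31) and *Col11a2* (-0.44) fell. In VAS *Stra6*-/- against VAS WT 7 of the 9 were lower and none higher, led by *Col5a3* (-1.04) and *Col2a1* (-0.98). In VAD WT against VAS WT 6 were higher and none lower, among them *Col1a1* (1.44) and *Col1a2* (1.11), the chains of type I collagen. With VAD WT replicates 2 and 4 left out it was 7 higher, against 17.6% of all genes, and none lower, with *Col1a1* at 0.80 and *Col1a2* at 0.33. Against VAD WT, 3 of the 9 were higher and 4 lower in the labelled libraries, against 26.2% and 29.6% of all genes. Without VAD WT replicates 2 and 4 it was 4 higher and 4 lower, against 30.7% and 32.5%.

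All 6 fibril-associated and beaded-filament collagen genes were higher in the labelled VAD *Stra6*-/- libraries than in VAS *Stra6*-/-, with *Col14a1* at 1.71 and *Col12a1* at 1.41. In VAS *Stra6*-/- against VAS WT 2 were lower, *Col6a1* (-0.48) and *Col6a2* (-0.35). Of the 6, 4 were higher in VAD WT than in VAS WT, with *Col6a3* at 1.26 and *Col16a1* at 1.00. When VAD WT replicates 2 and 4 were left out these were at 1.09 and 0.45. Then 4 of the 6 were higher and 2 lower, against 17.6% and 20.3% of all genes. Of 12 genes for collagen processing and cross-linking, 9 were higher and none lower in the labelled VAD *Stra6*-/- libraries than in VAS *Stra6*-/-, with the lysyl oxidases *Loxl4* at 2.38 and *Lox* at 2.33.

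The 7 genes of keratan sulfate synthesis did not move in 1 direction. Between the labelled VAD *Stra6*-/- libraries and VAS *Stra6*-/-, 2 were higher and 3 lower. The galactosyltransferase gene *B4galt4* was at 1.04 and *B3gnt2*, which extends the chain, at 0.98, and the sulfotransferase gene *Chst1* at -0.59. *Chst5*, known as the sulfotransferase of corneal keratan sulfate, was lower there, at -2.18, and at -1.19 in VAS *Stra6*-/- against VAS WT (limma adjusted p = 0.00584), where *Kera* was also lower. In VAD WT against VAS WT, where *Kera* was higher, *Chst5* was at 0.01 and not called, nor was it without VAD WT replicates 2 and 4 (0.23).

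Of 19 genes of chondroitin and dermatan sulfate synthesis, 11 were higher and 2 lower in the labelled VAD *Stra6*-/- libraries than in VAS *Stra6*-/-. The epimerase genes *Dse* (1.72) and *Dsel* (1.31), which convert chondroitin to dermatan sulfate, led the rise, and *Chst15* (-1.33) and *Fam20b* (-0.34) fell. From VAS WT to VAD WT 1 of the 19 was called, *Chst12* at 0.46. Without VAD WT replicates 2 and 4 it was no longer called (0.34, limma adjusted p = 0.0622). Then 1 other gene was higher and 5 were lower, against 17.6% and 20.3% of all genes. Of 8 growth factor and receptor genes whose products SLRPs are known to bind, 5 were higher and 2 lower in the labelled libraries than in VAS *Stra6*-/-, with *Tgfb3* at 2.20, *Tgfb2* at 1.30 and *Egfr* at -1.48. *Cd14*, a receptor subunit of innate immunity, was at 2.40 in VAS *Stra6*-/- against VAS WT, and 3 of the 8 were higher there.

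Lists of marker genes were taken for tissues that hold these proteoglycans. The summed value of 5 tendon genes, of which *Thbs4* was highest, was 2034 to 2424 in VAS WT, 2982 to 3266 in VAS *Stra6*-/- and 22663 to 24002 in the labelled VAD *Stra6*-/- libraries. In VAD WT it was 1839 to 2165 in replicates 1, 3 and 5 and 17677 to 18036 in replicates 2 and 4. All 5 were called higher in the labelled libraries than in VAS *Stra6*-/-, against 24.4% of all genes. *Tnmd* was at 3.66 and *Comp* at 3.34 on the log2 scale, and none of the 5 was at 0 in every library.

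The summed value of 8 fibroblast genes, led by *Fbln1*, was 8372 to 9245 in VAS WT, 9412 to 9942 in VAS *Stra6*-/- and 18777 to 20643 in the labelled VAD *Stra6*-/- libraries. It was 5480 to 5780 in VAD WT replicates 1, 3 and 5 and 11503 to 11513 in replicates 2 and 4. In the labelled libraries against VAS *Stra6*-/-, 6 of the 8 were higher and 1 lower, where 24.4% of all genes were called higher and 28.8% lower. Of 6 cartilage genes tested, 1 was higher and 1 lower in that comparison, and their summed value was 1367 to 1561 in the labelled libraries and 1436 to 1608 in VAS *Stra6*-/-, with *Sox9* highest. *Matn1*, a defining cartilage gene, was at 0 in every library of these groups. The cartilage matrix gene *Chad* thus rose where the cartilage list as a whole did not move in 1 direction.

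The summed value of 7 corneal epithelium genes, led by *Krt12*, was 514887 to 612351 in VAS WT, 704516 to 733582 in VAS *Stra6*-/- and 22322 to 28556 in the labelled VAD *Stra6*-/- libraries. In VAD WT it was 871527 to 896553 in replicates 1, 3 and 5 and 320227 to 323205 in replicates 2 and 4. All 7 were lower in the labelled libraries than in either other group compared with them. Of all genes, 28.8% were called lower than in VAS *Stra6*-/- and 29.6% lower than in VAD WT. Of 3 genes listed for corneal stroma outside the family, *Aldh3a1* and *Chst5* were lower (-5.03 and -2.18) and *Angptl7* higher (2.63) in the labelled libraries than in VAS *Stra6*-/-. Their summed value was 110897 to 143014 in VAS WT and 176960 to 185005 in VAS *Stra6*-/-. It was led by *Aldh3a1*, whereas *Chst5* had means of 203 and 88.8 in these groups, so the sum does not stand for the list. Like the corneal epithelium sum, it was higher in VAS *Stra6*-/-, where *Kera* and *Chst5* (-1.19) were lower. Of the 3 genes, 1 was called higher and 1 lower between these groups, against 15.9% and 10.8% of all genes. A change of the stroma as a whole was not tested. *Angptl7* was also higher in VAD WT than in VAS WT, by 2.26 (limma adjusted p = 1.23e-05), and by 1.56 without VAD WT replicates 2 and 4. *Kera* moved the other way when these 2 libraries were left out, from 1.44 to 2.11.

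RPE markers, which define the labelled tissue, were present in every group. Their summed value over 7 genes was 100768 to 116604 in VAS WT, 27312 to 51682 in VAD WT, 106787 to 112163 in VAS *Stra6*-/- and 461320.5 to 502051 in the labelled VAD *Stra6*-/- libraries. Of the 7, 6 were higher in the labelled libraries than in VAS *Stra6*-/-, against 24.4% of all genes. In VAD WT 6 were lower than in VAS WT, against 5.50%, and 6 without VAD WT replicates 2 and 4, against 20.3%. Among other cell types, markers of melanocytes (5 of 5), mural cells (4 of 4), macrophages (4 of 4), Schwann cells (3 of 3) and endothelium (3 of 6) were higher in the labelled VAD *Stra6*-/- libraries than in VAS *Stra6*-/-, with none lower, against 24.4% of all genes called higher. Markers of skeletal muscle (2 of 5) and rods (2 of 4) were lower there, with none higher, against 28.8% called lower. All 5 skeletal muscle genes were higher in VAS *Stra6*-/- than in VAS WT, where *Kera* was called lower, against 15.9% of all genes, and their summed value was 21578 to 24352 and 8364 to 9979.6 in these groups. The part of these tissues and of tendon, fibroblasts, cornea and RPE in the values of the 10 members was not tested.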

How the data were processed

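Bulk RNA-seq of RPE-choroid was analysed in 20 libraries, 4 groups of 5. Per the labels and the study's methods, reads had been aligned to GRCm38/mm10 with STAR (2.5.3a), RSEM (1.2.30) had estimated counts per gene, and the authors deposited a signal value per gene, which is the count divided by 1 DESeq2 (1.32.0) size factor per library, without length scaling. Library depth, read back from these steps, was 13331903 to 21878614 reads (median 17785927), and it limits the precision of low genes.

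Genes with a total of at least 5 reads were tested (18807 of 24411) with limma 3.58.1 in R 4.3.3 on log2(value + 1), with an intensity trend, a mean for each group and Benjamini-Hochberg adjustment over all tested genes. Genes were called at an adjusted p under 0.05. Fold changes are on this scale, which understates the change of low genes. Nothing in the labels ties libraries to litters or batches, so p-values measure the spread between these libraries.

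In each library 100% of values came out as whole reads (tolerance 0.001). For VAD *Stra6*-/- replicate 1 the value of 1 read was too close to 1 for the step to be told from the deposited values themselves. Its reads were therefore left out of the count tests. They did enter the depth, the filter on total reads and the check of library pairs against sampling noise. The reads of the other 19 libraries entered edgeR 4.0.16 and DESeq2 1.42.0 as alternatives, with 4 libraries in the labelled VAD *Stra6*-/- group, and edgeR called 4884, 1530, 9457 and 9942 genes and DESeq2 5458, 2140, 9750 and 10220 of 18780 in the 4 pairwise comparisons in the order of the report. For the interaction the counts were 7949 and 8275. The other alternatives were pseudocounts of 0.5 and 4, TMM scaling, no filter, a total of at least 200, no trend, the replicate number as a block, each library left out, VAD WT replicates 2 and 4 left out, the 2 compared groups alone, and a log2 fold change beyond 2. The limma, edgeR and DESeq2 steps were tested on simulated data.

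Exon lengths (all annotated exons of a gene together) and positions came from GENCODE annotation of GRCm38, and promoter windows from RefSeq. Named genes were the 10 members, the 8 other family genes, the 2 called genes with the highest absolute fold change per pathway list, comparison and direction (group mean of at least 100), the top gene of each marker list, and the 5 genes most like *Kera* and *Dcn* (mean of at least 50), of which 1 is not reported here. *Chst5*, *Angptl7*, *Aldh3a1*, *Tnmd*, *Comp*, *Matn1* and *Krt12* were named as marker genes after their values were seen. The members and lists were chosen with earlier results of these data known.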

Additional observations from a re-analysis of the deposited data

Results flagged for a closer look

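The response to the diet differed between the genotypes, with the libraries taken as labelled, for 8 of the 10 members by the limma interaction test. The difference between the diet effects was highest for *Chad*, at 3.18 on the log2 scale, followed by *Omd* (2.74), *Ogn* (2.65), *Aspn* (2.59) and *Dcn* (2.16). It was lower for *Lum* (1.33), *Fmod* (1.28) and *Bgn* (1.26). Of 40 checks of a member within a group of 5 libraries for a single library far from the rest, 0 passed Dixon's critical value of 0.71. That check does not detect 2 libraries that lie apart together, as VAD WT replicates 2 and 4 did.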

How the results depend on the processing

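The 10 members kept their direction and call in most alternatives: of the values that leave out no single library, 505 were unchanged in direction and call, 14 passed the threshold newly, 13 lost it and 8 turned. With each library left out in turn, 963 were unchanged, 6 passed newly, 15 were lost and 16 turned. A library outside a pairwise comparison does not enter its fold change, so many of the unchanged values could not have turned. In VAS *Stra6*-/- against VAS WT, 5 members were called without VAD WT replicates 2 and 4, against 40.0% of all genes. With the 2 groups alone *Kera*, *Bgn*, *Ogn*, *Aspn* and *Prelp* passed, and no share of all genes is given for that fit. *Dcn* was at -0.0154 with TMM scaling and -0.0158 in edgeR. Between VAD WT and VAS WT, 4 members were called by edgeR and 4 by DESeq2, adding *Dcn* and *Omd*, against 1530 and 2140 of 18780 genes. With the 2 groups alone 0 were called, and without VAD WT replicates 2 and 4 it was 8, against 37.9% of all genes. With these 2 left out, the log2 fold change there turned to -0.66 for *Aspn*, -0.38 for *Bgn*, -1.12 for *Chad*, -0.57 for *Fmod*, -0.29 for *Ogn* and -0.75 for *Prelp*. The median log2 ratio of *Kera* to the other members then differed by 2.80 between VAD WT and VAS WT (1.36 with all libraries) and by -5.49 between the labelled VAD *Stra6*-/- libraries and VAD WT (-4.05 with all), and 2 of the 5 genes most like *Kera* were again nearest. Beyond a log2 fold change of 2, 0, 0, 6, 6 and 5 members were called in the 5 comparisons. The cause was not tested.

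With 1 library left out, the log2 fold change in VAS *Stra6*-/- against VAS WT ran from -0.00241 to 0.0266 for *Dcn* and from -0.0331 to 0.00861 for *Lum*. Between VAD WT and VAS WT it ran from -0.0361 to 0.33 for *Bgn*, -0.0290 to 0.54 for *Fmod*, -0.28 to 0.22 for *Prelp*, -0.18 to 0.36 for *Aspn* and -0.18 to 0.85 for *Chad*. In that comparison the number of members called was 2 to 3: *Dcn* joined without VAD WT replicate 1 and *Omd* without VAD WT replicate 5 (limma adjusted p = 0.0491 and 0.0340). It was 7 to 10 of the interaction, 9 to 10 of the 2 comparisons with the labelled VAD *Stra6*-/- libraries and 1 between the genotypes under sufficient vitamin A. No share of all genes is given for these fits, so the counts show just whether calls held. Without an intensity trend *Fmod* lost its interaction call (limma adjusted p = 0.0516).

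The replicate numbers did not pair the libraries: libraries of the same number in different groups had a median correlation of deviations of 0.0109 (1 of 30 pairs above 0.1, against 10 of 120 with other numbers). With the replicate block 1, 2, 10, 10 and 8 members were called in the 5 comparisons, the same counts as without it. For that fit too, no share of all genes is given. No pair of libraries of a group was within sampling noise. Low genes such as *Epyc*, *Nyx* and *Podnl1* are limited by depth.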
